A study of Homo sapiens with 7 samples.

Results

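The mRNA decay machinery described here comprises 46 genes, chosen by name as the deadenylases, decapping factors, exonucleases, exosome subunits, nonsense-mediated decay factors and GW182 proteins among the 20056 gene symbols with values. They fall into CCR4-NOT with 10 genes, PAN2-PAN3 and PARN with 3, decapping with 7, the 5′-3′ exonucleases with 2, the RNA exosome with 12, nonsense-mediated decay with 9 and GW182 with 3. LSM genes were not among them. The genes were measured in HCT116 cells, an established line from a human colorectal carcinoma, growing in log phase in serum-free medium with growth factor, insulin and transferrin. No treatment, genotype or time point was compared, and the groups are the 3 assays. Transcription rate (TR) came from 2 GRO-seq libraries, a run-on assay in which polymerases already on a gene lengthen their transcripts in isolated nuclei. mRNA abundance (RA) came from 3 RNA-seq libraries, and translation activity (TA) from 2 libraries of the mRNA that sedimented with polysomes after cycloheximide, which holds ribosomes on the mRNA.

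Most mRNAs in human cells are destroyed in order. Deadenylases shorten the poly(A) tail, decapping enzymes remove the cap, and XRN1 then degrades the body from the 5′ end, while the exosome degrades RNA from the 3′ end. Nonsense-mediated decay finds mRNAs whose translation stops too early, and GW182 proteins bring deadenylases to the targets of microRNAs. These factors are themselves translated from mRNAs that are made, kept and read like any other, so each can be followed from TR to RA to TA.

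All values are RPKM, the reads over a gene's exons scaled by the length of those exons and by the number of reads in the library, so genes can be compared per length. Library sizes worked out from the values ran from 3391897 reads in the smaller TR library to 30805391 in the larger TA library, and each member rested on at least 59 reads in each TR library and at least 202 in each RA or TA library. The 5 epithelial markers examined (EPCAM, CDH1, KRT8, KRT18 and KRT19) stood between 40.8 and 1111 RPKM in the RA libraries, and PTPRC, PECAM1 and DCN, which mark leukocytes, endothelium and fibroblasts, at 0 to 0.0354 RPKM. COL1A1, also a fibroblast gene, was present at 10.1 to 13.8 RPKM. Over all members, the median level went from 21.6 RPKM in TR through 20.2 in RA to 20.1 in TA, while the range widened from 5.24 to 96.9 RPKM in TR to 1.71 to 113 RPKM in TA.

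**Figure D1:**
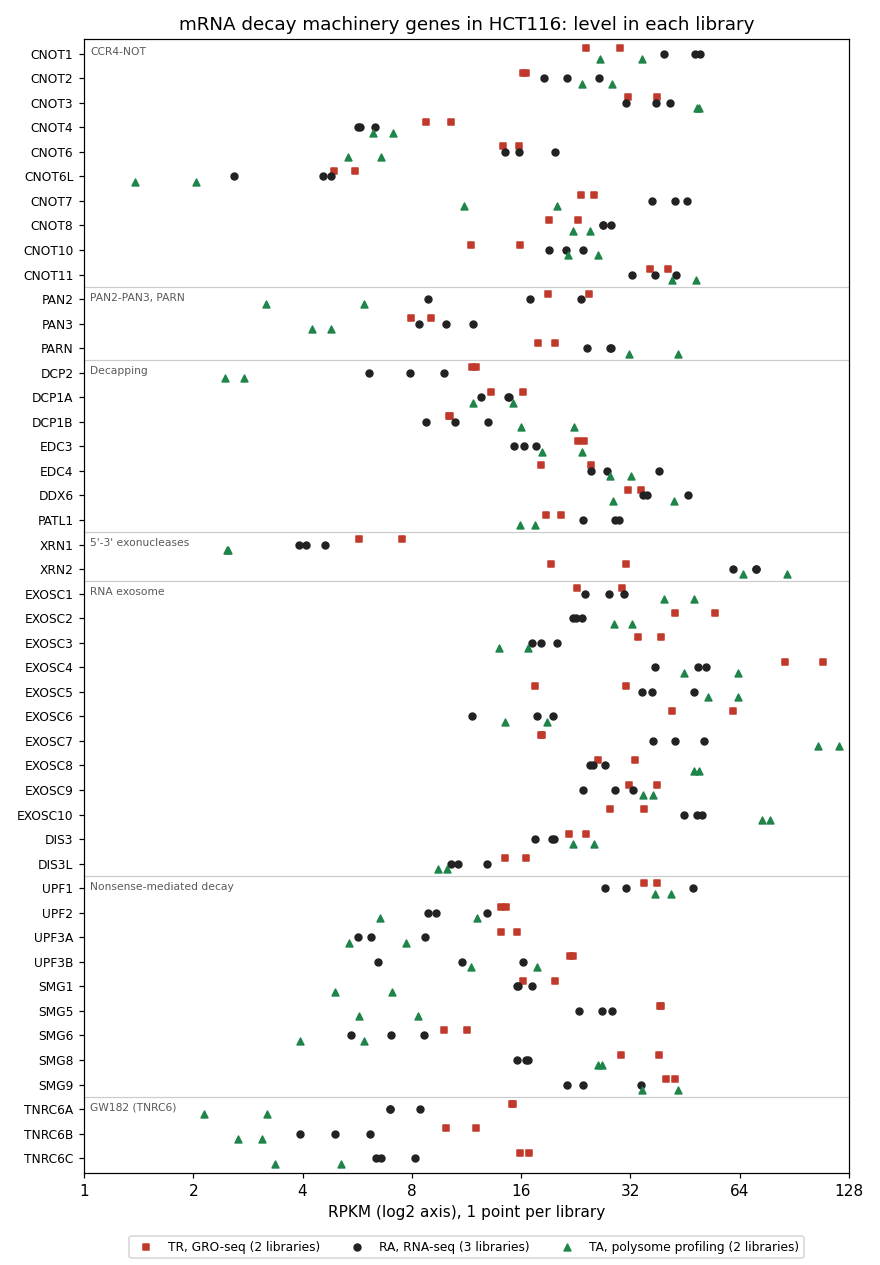
RPKM of the 46 mRNA decay machinery genes in each of the 7 libraries on a log2 axis, with red squares for TR, black circles for RA and green triangles for TA. EXOSC7 moves furthest to the right from TR to TA, and the 3 TNRC6 genes, SMG5, DCP2 and XRN1 move to the left.

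Following the study's indices, log2(RA/TR) is called the stability index and log2(TA/RA) the translation index. Tests were made with limma on log2(RPKM + 0.1) across 14305 expressed genes, those whose mean reached 1 RPKM in some assay, with Benjamini-Hochberg adjustment and a threshold of 0.05. Both indices use the same 3 RA libraries, RA above the line in the first and below it in the second, so calls in the 2 indices are not independent of each other. The paper calls the replicates biological, but nothing in the labels ties a library to a separate culture. The p-values measure the spread between these libraries. GRO-seq reads RNA that is being made and the others read finished mRNA, so 0 on the stability scale is a point of the scale and not an absence of decay.

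In the counts below, 1 assay is said to exceed or lie below another only where the limma log2 ratio passed the threshold. A share of all genes given with such a count is the share of the 14305 tested genes called the same way. As deposited, RA exceeded TR for 9 of 46 members (19.6% of them), beside 19.2% of all genes tested. RA was below TR for 15 members (32.6%), beside 48.0% of all genes. TA exceeded RA for 6 members (13.0%), beside 6.66% of all genes, and was below RA for 14 (30.4%), beside 29.2%. The median stability index was -0.24 over the members and -0.50 over all expressed genes with values in each assay, and the median translation index was 0.01 over the members and -0.47 over all. Leaving out 1 library in turn took these 4 counts to 4 to 9, 8 to 17, 2 to 6 and 8 to 14. The stability counts were lowest without TR replicate 2, at 4 above and 8 below 0, and were 5 and 9 without TR replicate 1 and 5 and 11 without RA replicate 3. The translation counts were 2 above and 9 below 0 without TA replicate 1, 3 and 9 without TA replicate 2, and 3 and 8 without RA replicate 3, and without either TR library (each left out alone), which enters through the shared spread, they were 5 and 9. Of the 24 stability calls 8 were kept in all 7 of these fits, and of the 20 translation calls 9 were. Of the 46, 29 stood above the median of all genes in the stability index and 31 in the translation index.

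The medians of all genes lie away from 0, and the counts depended on this. When each library was centred on its own median, the log2 ratios of all genes moved by 0.67 in the stability index and by 0.50 in the translation index. Relative to the typical gene, RA then exceeded TR for 21 members (35.4% of all genes) and was below it for 1, EXOSC6 (33.7% of all genes). TA exceeded RA for 19 members (19.0% of all genes) and was below it for 6 (9.81% of all genes), namely CNOT6, CNOT7, DCP2, SMG1, SMG5 and TNRC6A. Unless centring is named, the calls in the text refer to the values as deposited.

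**Figure D2:**
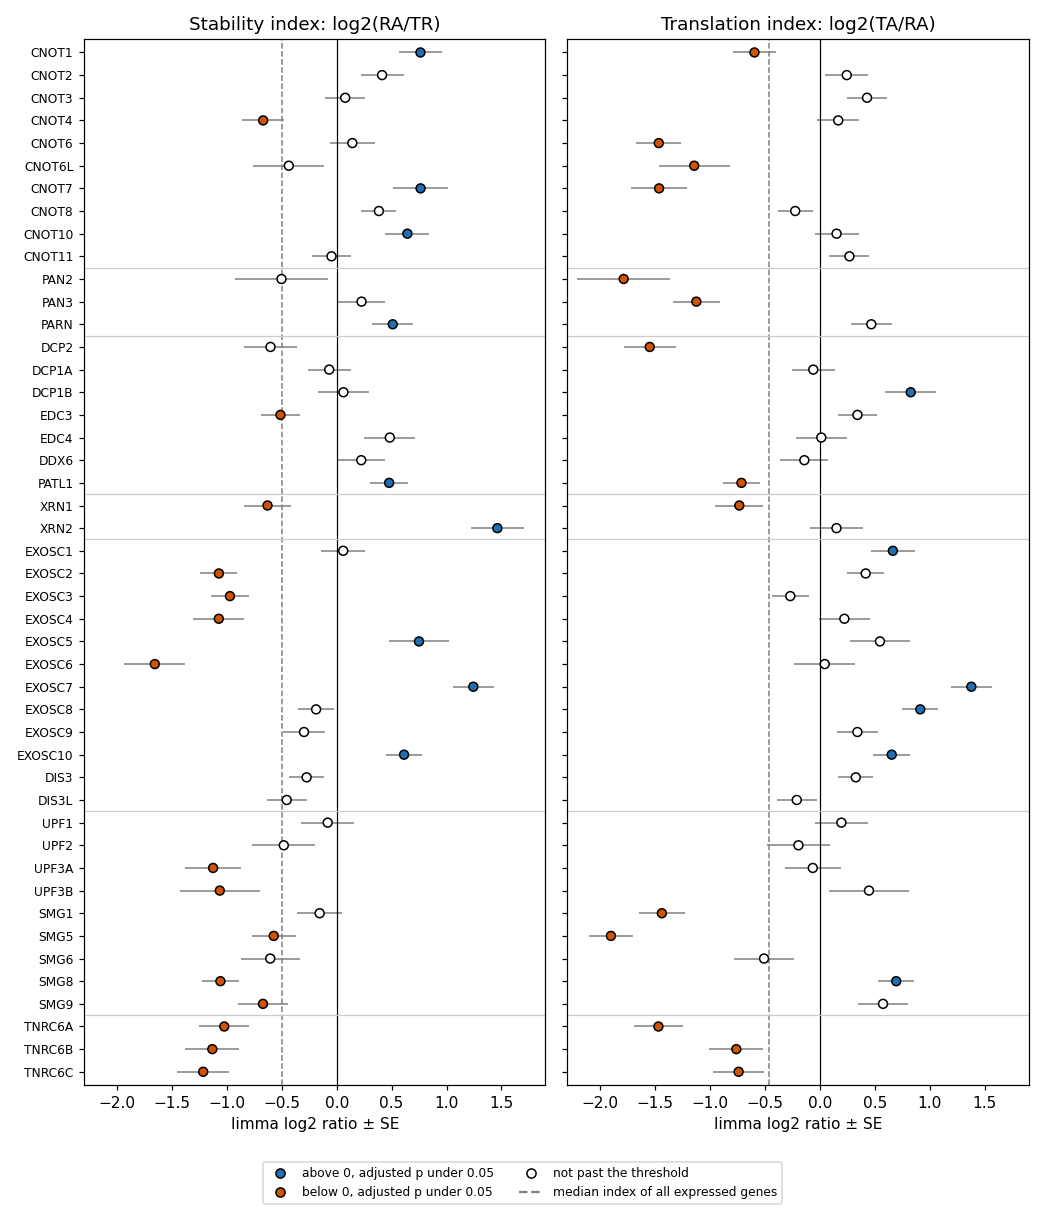
limma log2 ratios with their SE for the stability index (left) and the translation index (right) of each member, ordered by complex. Blue points lie above 0 and orange points below 0 at an adjusted p under 0.05, and open points did not pass. The dashed lines mark the median index of all expressed genes, -0.50 and -0.47, from ratios of arithmetic means. On the limma scale of the points, the values that centring sets to 0 are -0.67 and -0.50. Stability points between -0.67 and the dashed line therefore lie above 0 after centring.

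CCR4-NOT, the main cytoplasmic deadenylase, differed between its subunits. TA was below RA for 4 of 10 genes, beside 29.2% of all genes, and 3 of these were among the 4 catalytic subunits, CNOT6, CNOT6L and CNOT7. The median translation index was -1.32 over the 4 catalytic subunits and 0.20 over the other 6 genes. After centring, TA was below RA for 2 of 10 genes, CNOT6 and CNOT7, beside 9.81% of all genes. CNOT6L (limma, adjusted p = 0.148) and CNOT1 (adjusted p = 0.756) no longer passed. TA was then above RA for 5 of 10 genes, CNOT2, CNOT3, CNOT4, CNOT10 and CNOT11, beside 19.0% of all genes. CNOT9, a further subunit named after its values were seen, was listed with the partners under the older symbol RQCD1. It is not in these counts or medians. Its translation log2 ratio was -0.97 ± 0.20 (SE; limma, adjusted p = 0.0103), which did not pass after centring (adjusted p = 0.107). RA exceeded TR for 3 of 10 genes (19.2% of all genes), CNOT1, CNOT7 and CNOT10, and was below TR for CNOT4.

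CNOT7, a CAF1-type deadenylase, stood at 23.4 and 25.4 RPKM in TR, at 36.6, 42.4 and 46.0 in RA, and at 11.2 and 20.1 in TA. The 3 assays did not overlap, with the highest level in RA and the lowest in TA. Its stability log2 ratio was 0.76 ± 0.25 (SE; limma, adjusted p = 0.0272), the highest of the complex together with that of CNOT1, and its translation log2 ratio was -1.46 ± 0.25 (adjusted p = 0.00555). The annotation holds 2 pseudogenes named after CNOT7 and 1 each after CNOT4 and CNOT6L, and how reads shared with them were counted is not given in the sources used here.

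CNOT6 (chr5:179921379-180005358, plus strand, GRCh37), a CCR4-type deadenylase, stood at 14.2 and 15.8 RPKM in TR, at 19.8, 14.5 and 15.8 in RA, and at 5.34 and 6.59 in TA. TR and RA overlapped and both TA libraries lay far below. Its translation log2 ratio of -1.47 ± 0.20 (adjusted p = 0.00353) was the lowest of the complex, next to that of CNOT7. Its paralogue CNOT6L was the least abundant member of the complex at each step, with TA at 1.38 and 2.04 RPKM against RA of 4.80, 2.58 and 4.54, and a translation log2 ratio of -1.14 ± 0.32 (adjusted p = 0.0277).

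CNOT8, the other CAF1-type deadenylase, passed in neither index, with log2 ratios of 0.38 ± 0.16 for stability and -0.22 ± 0.16 for translation. CNOT1, the scaffold that holds the complex, stood at 29.9 and 24.1 RPKM in TR, at 49.9, 39.6 and 48.3 in RA, and at 34.5 and 26.4 in TA. Its RA libraries lay above every TR and TA library, with a stability log2 ratio of 0.76 ± 0.20 (adjusted p = 0.00948) and a translation log2 ratio of -0.60 ± 0.20 (adjusted p = 0.0491). CNOT1 shares 12.5% of its exon bases with SETD6 on the other strand. CNOT4, an E3 ubiquitin ligase associated with the complex, had the lowest stability log2 ratio, -0.67 ± 0.19 (adjusted p = 0.0137), which after centring was 0.00. CNOT3, of the NOT module, had the highest translation log2 ratio, 0.43 ± 0.18, which did not pass (adjusted p = 0.0981) and passed after centring (adjusted p = 0.0105). CNOT6 and CNOT7 kept their translation calls in each of the 7 fits that left out 1 library, while CNOT6L kept its call only without TA replicate 2 or RA replicate 2 (adjusted p of up to 0.169 in the others) and CNOT1 only without RA replicate 2 (up to 0.254). In stability, CNOT1, CNOT4 and CNOT10 lost their calls without TR replicate 2, with adjusted p of 0.0854, 0.0809 and 0.145 (CNOT10 belongs to the N-terminal module), and CNOT7 without either TR library or RA replicate 3 (up to 0.156).

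The PAN2-PAN3 deadenylase, which trims long poly(A) tails, had TA below RA for both of its subunits, beside 29.2% of all genes. PAN2 (chr12:56710007-56727837, minus strand), the catalytic subunit, stood at 18.9 and 24.6 RPKM in TR, at 8.85, 23.4 and 16.9 in RA, and at 5.91 and 3.17 in TA. The RA libraries were spread widely, and both TA libraries lay below them. Its translation log2 ratio was -1.79 ± 0.42 (adjusted p = 0.0153), at percentile 6.48 of all genes by its index, and PAN3, the adaptor subunit, had -1.12 ± 0.21 (adjusted p = 0.00713). PARN, a separate deadenylase, went the other way, with TR at 19.8 and 17.9, RA at 28.3, 28.1 and 24.3, and TA at 43.4 and 31.8 RPKM. The 3 assays of PARN did not overlap, with TR lowest and TA highest, but of the 2 log2 ratios only that of stability passed, at 0.51 ± 0.19 (adjusted p = 0.0402), and that of translation was 0.47 ± 0.19 (adjusted p = 0.0847). The PAN2 call was lost without either TR library or TA replicate 2, with an adjusted p of up to 0.0914, and the PARN call was kept only without a TA library (up to 0.174). PAN3 kept its call in all 7. After centring, neither PAN2 (limma, adjusted p = 0.0563) nor PAN3 (adjusted p = 0.0705) passed in translation, and PARN passed above 0 in both indices.

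Among the 7 decapping genes, the enzyme itself was the member with the lowest translation index. DCP2 (chr5:112312399-112357892, plus strand), which cleaves the cap, stood at 11.7 and 12.1 RPKM in TR, at 9.82, 6.10 and 7.92 in RA, and at 2.44 and 2.76 in TA. The assays did not overlap, with TR highest and TA lowest. Its translation log2 ratio was -1.55 ± 0.24 (adjusted p = 0.00414) and was kept in each of the 7 fits without 1 library, while its stability log2 ratio of -0.60 ± 0.24 did not pass (adjusted p = 0.0526).

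DCP1B, an activator of DCP2, had the highest translation log2 ratio of the group, 0.83 ± 0.23 (adjusted p = 0.0265), with RA at 8.76, 13.0 and 10.5 and TA at 22.4 and 16.0 RPKM. Its paralogue DCP1A had -0.06 ± 0.20 for translation and -0.07 ± 0.20 for stability. PATL1, a scaffold that links deadenylation to decapping, had TA below RA, with a log2 ratio of -0.71 ± 0.17 (adjusted p = 0.0161). Its stability log2 ratio was 0.48 ± 0.17 (adjusted p = 0.0367). EDC4, an enhancer of decapping, had the highest stability log2 ratio, 0.48 ± 0.23, which did not pass (adjusted p = 0.0992), and shares 22.7% of its exon bases with non-coding genes. DDX6, a helicase that activates decapping, stood at 32.9 RPKM in TR, 38.8 in RA and 35.5 in TA (means), with neither index past the threshold, and the annotation holds 2 pseudogenes named after it. EDC3, another enhancer, was called below 0 in stability at -0.51 ± 0.17 (adjusted p = 0.0298), which after centring was 0.16. DCP1B lost its call without either TR library, TA replicate 1 or RA replicate 3 (adjusted p of up to 0.180), and PATL1 lost that of translation without TA replicate 1 or RA replicate 3 (up to 0.0967) and that of stability without either TR library, RA replicate 1 or RA replicate 3 (up to 0.143). EDC3 lost its call without either TR library or RA replicate 3 (up to 0.110).

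The 2 5′-3′ exonucleases lay further apart at each step. XRN1 (chr3:142025449-142166904, minus strand), the cytoplasmic enzyme that degrades decapped mRNA, stood at 7.50 and 5.70 RPKM in TR, at 4.09, 3.91 and 4.61 in RA, and at 2.49 and 2.47 in TA. XRN2 (chr20:21283969-21370463, plus strand), the nuclear enzyme that also acts in transcription termination, stood at 31.1 and 19.3 in TR, at 71.1, 70.9 and 61.4 in RA, and at 86.5 and 65.3 in TA. XRN1 fell at each step without overlap, whereas XRN2 was higher in every RA library than in either TR library and overlapped between RA and TA.

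The stability log2 ratio of XRN2, 1.46 ± 0.24 (adjusted p = 0.000836), was the highest of all 46 members and held in each fit without 1 library. For XRN1 it was -0.63 ± 0.22 (adjusted p = 0.032), and after centring 0.04. The translation log2 ratio was -0.73 ± 0.22 for XRN1 (adjusted p = 0.0333) and 0.15 ± 0.24 for XRN2 (adjusted p = 0.651). XRN1 lost its stability call without TR replicate 1, RA replicate 2 or RA replicate 3 (adjusted p of up to 0.174) and its translation call without either TA library or RA replicate 3 (up to 0.125). Within each library, the log2 ratio of XRN1 to XRN2 was -2.05 and -1.76 in TR, -4.12, -4.18 and -3.74 in RA, and -5.12 and -4.72 in TA, with no overlap between assays.

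The RNA exosome is a barrel of a cap (EXOSC1 to EXOSC3) and a ring (EXOSC4 to EXOSC9) that feeds RNA into the nucleases DIS3, DIS3L or EXOSC10. All 12 of its genes lay above the median of all genes in the translation index, with a median of 0.38. TA exceeded RA past the threshold for 4 of 12 genes, EXOSC1, EXOSC7, EXOSC8 and EXOSC10, beside 6.66% of all genes. TA was below RA for none in limma, beside 29.2% of all genes, with 0 genes also at an unadjusted p under 0.05. After centring TA exceeded RA for 9 of 12 genes (19.0% of all genes). In the stability index the exosome genes went both ways, with 3 called above 0, EXOSC5, EXOSC7 and EXOSC10, and 4 below 0, EXOSC2, EXOSC3, EXOSC4 and EXOSC6. The shares of all genes were 19.2% and 48.0%. After centring, 5 of 12 were above 0, beside 35.4% of all genes. Only 1, EXOSC6, was then below 0, beside 33.7% of all genes.

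EXOSC7 (chr3:45016733-45077558, plus strand), a ring subunit, stood at 18.2 and 18.1 RPKM in TR, at 36.9, 51.2 and 42.6 in RA, and at 120.1 and 105 in TA. It had the lowest mean TR of the 9 core subunits and the highest mean TA of all 46 members, and the assays did not overlap. Its stability log2 ratio was 1.24 ± 0.18 (adjusted p = 0.000484) and its translation log2 ratio 1.38 ± 0.18 (adjusted p = 0.00337). The translation index placed it at percentile 99.7 of all expressed genes. Both calls held in each fit without 1 library and after centring. EXOSC7 shares 13.6% of its exon bases with CLEC3B on the same strand.

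EXOSC6 (chr16:70280681-70285843, minus strand), also of the ring, was the opposite in stability, at 41.6 and 61.4 RPKM in TR, 19.6, 11.7 and 17.7 in RA, and 14.4 and 18.8 in TA. TR lay above all other libraries, and RA and TA overlapped. The stability log2 ratio of -1.66 ± 0.28 (adjusted p = 0.00093) was the lowest of all 46 members, held in each fit without 1 library and remained past the threshold after centring, at -0.98 (adjusted p = 0.0093). Its translation log2 ratio was 0.04 ± 0.28.

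EXOSC4 had the highest TR of all members, 85.3 and 108.6 RPKM, and 51.9, 37.4 and 49.1 in RA, with a stability log2 ratio of -1.07 ± 0.23 (adjusted p = 0.00375), not past the threshold without TR replicate 2 (adjusted p = 0.0551). The annotation places a coding read-through locus over 56.7% of its exon bases, so how its reads were assigned is uncertain. EXOSC8, of the ring, followed EXOSC7 in the translation index, with RA at 27.3, 25.3 and 24.8 and TA at 47.9 and 49.4 RPKM, a log2 ratio of 0.91 ± 0.16 (adjusted p = 0.0062), held in each fit without 1 library. EXOSC3, of the cap, had the lowest translation log2 ratio of the complex, -0.27 ± 0.17 (adjusted p = 0.252), and its mean TA of 15.3 RPKM was the lowest of the 9 core subunits. The annotation holds 2 pseudogenes named after EXOSC3.

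The 3 exosome nucleases differed. EXOSC10, the nuclear one, rose at each step, with TR at 35.0 and 28.1, RA at 48.8, 45.0 and 50.3, and TA at 73.7 and 77.5 RPKM. Its log2 ratios were 0.61 ± 0.17 for stability (adjusted p = 0.0114) and 0.65 ± 0.17 for translation (adjusted p = 0.0196), and 39.1% of its exon bases are shared with non-coding genes. Its stability call was lost without TR replicate 2 (adjusted p = 0.0547), and that of EXOSC5 without TR replicate 1 or any RA library (up to 0.302). DIS3 had log2 ratios of -0.27 ± 0.16 and 0.33 ± 0.16, and DIS3L, the cytoplasmic one, -0.46 ± 0.18 and -0.21 ± 0.18, none of which passed. The translation calls of EXOSC1, of the cap, and EXOSC10 were each lost without either TA library or RA replicate 3, with adjusted p of up to 0.192 and 0.0863.

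Levels of the 9 core subunits, which join the barrel in equal numbers, were closest to each other in RA. Over the 9 genes, the SD of log2 RPKM was 0.72 and 0.74 for TR, 0.46, 0.68 and 0.51 for RA, and 0.98 and 0.84 for TA, with 1 value per library. The 3 assays did not overlap, and an exact permutation test of 2 against 3 libraries cannot give a 2-sided p below 0.2. CCR4-NOT widened at each step instead, from 0.90 and 0.87 in TR to 1.12, 1.34 and 1.19 in RA and 1.63 and 1.45 in TA, as did the 13244 genes above 0 in every library, from 1.53 and 1.54 to 2.55, 2.53 and 2.55 and then 2.96 and 2.96.

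**Figure D3:**
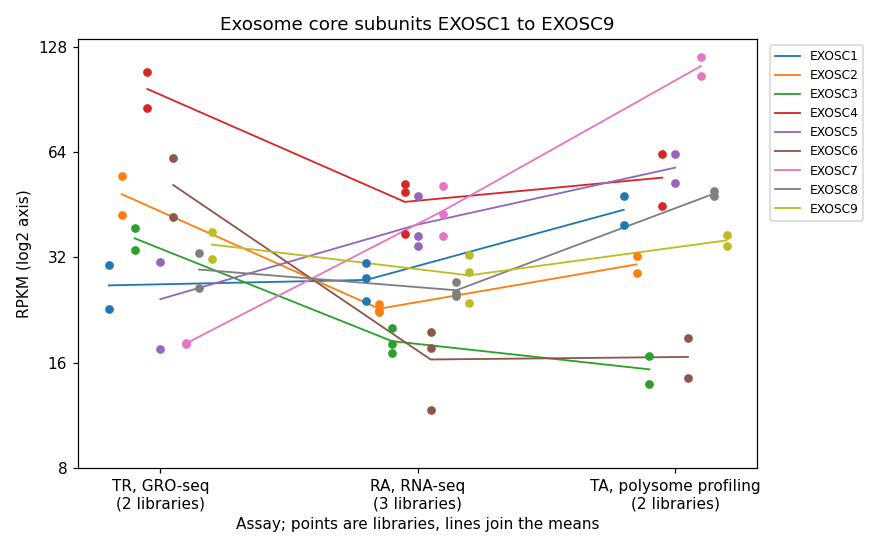
RPKM of the exosome core subunits EXOSC1 to EXOSC9 on a log2 axis, with 1 point per library and lines joining the assay means. EXOSC7 goes from the lowest mean TR, 18.2 RPKM, to the highest mean TA, 113 RPKM, and the subunits lie closest together in RA.

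Among the 9 nonsense-mediated decay genes, RA was below TR for 5 and above it for none in limma, with 0 also at an unadjusted p under 0.05. The 5 of 9 (55.6%) lie near the 48.0% of all genes called below 0, and 19.2% were called above it. The 5 were UPF3A, UPF3B, SMG5, SMG8 and SMG9. After centring none passed in either direction, and at an unadjusted p under 0.05 there were 2 above 0, UPF1 and SMG1, and 0 below. Without TR replicate 2 only the call of SMG8 was left of the 5, without TR replicate 1 those of UPF3A and SMG8, and without RA replicate 3 those of UPF3A, SMG8 and SMG9. Without RA replicate 1 the call of SMG9 was lost, and without RA replicate 2 it was lost as well.

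SMG5 (chr1:156219015-156252616, minus strand), an adaptor that brings decay enzymes to phosphorylated UPF1, stood at 38.9 and 38.6 RPKM in TR, at 26.7, 28.5 and 23.1 in RA, and at 8.30 and 5.71 in TA. The assays fell at each step without overlap. Its translation log2 ratio of -1.90 ± 0.20 (adjusted p = 0.00249) was the lowest of all 46 members, at percentile 6.03 of all genes by its index, and held in each fit without 1 library and after centring. Its stability log2 ratio was -0.57 ± 0.20 (adjusted p = 0.0345), and after centring 0.10.

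SMG1, the kinase that phosphorylates UPF1, had RA at 15.7, 15.6 and 17.1 and TA at 7.03 and 4.92 RPKM, with a translation log2 ratio of -1.44 ± 0.21 (adjusted p = 0.00371). The annotation holds 6 pseudogenes named after SMG1, and their share in its reads was not tested. SMG8 and SMG9, which hold SMG1 in check, lay on the other side. SMG8 had the highest translation log2 ratio of the group, 0.70 ± 0.17 (adjusted p = 0.0156), with RA at 16.5, 16.7 and 15.6 and TA at 26.8 and 26.1 RPKM, which was lost without either TA library or RA replicate 3 (adjusted p of up to 0.0843). SMG9 had 0.58 ± 0.23, which did not pass (adjusted p = 0.0855).

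UPF1, the helicase at the centre of the pathway, had the highest stability log2 ratio of the group, -0.08 ± 0.24, and a translation log2 ratio of 0.20 ± 0.24, with mean levels of 36.4, 35.4 and 39.4 RPKM in TR, RA and TA. UPF3A, which bridges UPF2 and the exon junction complex, had the lowest stability log2 ratio, -1.13 ± 0.25 (adjusted p = 0.00451). The annotation holds 3 pseudogenes named after UPF3A, and their share in its reads was not tested either. UPF3B, its paralogue, had -1.06 ± 0.36 (adjusted p = 0.0311), with RA spread from 6.45 to 16.2 RPKM. UPF2, the activator of UPF1, and SMG6, the endonuclease of the pathway, passed in neither index, and SMG6 had -0.61 ± 0.27 and -0.51 ± 0.27. SMG6 shares 22.9% of its exon bases with HIC1 on the other strand.

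The GW182 proteins TNRC6A, TNRC6B and TNRC6C, which bind Argonaute and recruit CCR4-NOT and PAN2-PAN3, lay below 0 in both indices, 3 of 3 in each, beside 48.0% of all genes in stability and 29.2% in translation. TNRC6A stood at 15.1 and 15.2 RPKM in TR, at 8.40, 6.96 and 6.96 in RA, and at 3.18 and 2.14 in TA. TNRC6B stood at 12.0 and 9.93, at 6.15, 3.93 and 4.92, and at 3.09 and 2.66 RPKM in the same order. TNRC6C stood at 16.9 and 15.9, at 8.15, 6.37 and 6.57, and at 5.11 and 3.36 RPKM.

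For each of the 3 genes every TR library lay above every RA library and every RA library above every TA library. How many of all genes share this order was not counted. The medians over all expressed genes with values in each assay also fell, from 14.7 RPKM in TR to 9.66 in RA and 6.94 in TA. The stability log2 ratios were -1.02 ± 0.23, -1.13 ± 0.25 and -1.22 ± 0.23, with limma adjusted p of 0.00419, 0.00381 and 0.00206. Those of translation were -1.47 ± 0.23, -0.76 ± 0.25 and -0.74 ± 0.23, with adjusted p of 0.00415, 0.0441 and 0.0416. After centring, none of the 3 passed in stability, and in translation TNRC6A alone did, at -0.97 (adjusted p = 0.0191). With 1 library left out, TNRC6A kept its translation call in all 7 fits, TNRC6B only without RA replicate 2 (adjusted p of up to 0.176 in the others) and TNRC6C only without TA replicate 1 or RA replicate 2 (up to 0.233). In stability, TNRC6B lost its call without TR replicate 1 (adjusted p = 0.0506).

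The start codons of the 3 genes shared a feature. The sequence around a start codon bears on how well a scanning ribosome recognises it, and a purine 3 bases before the ATG and a G just after it are the letters best known for this. Of the 46 members, 40 (87.0%) had that purine, beside 86.9% of 13123 expressed genes, whereas 0 of the 3 GW182 genes did. The other members without it were CNOT2, CNOT11 and EDC4. Their translation log2 ratios were 0.25, 0.27 and 0.01, none past the threshold. Because the GW182 genes lack the purine, the contexts of their canonical transcripts are shown. These run from 9 bases before the start codon to 3 after it, 5′ to 3′ on the coding strand with the ATG in capitals. They were read from GENCODE 44 on GRCh37, and the start codons lie on the plus strand at chr16:24741163-24741165, chr22:40574140-40574142 and chr17:76000288-76000290.
TNRC6A: tttacacacATGaga
TNRC6B: ctgcactttATGaga
TNRC6C: gaacgtttgATGgaa

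The same window is shown for the 4 members with the highest translation log2 ratios and for the 3 with the lowest, with start codons at chr3:45017770-45017772 (plus, EXOSC7), chr13:37574943-37574945 (plus, EXOSC8), chr12:2113595-2113597 (minus, DCP1B), chr17:57287413-57287415 (plus, SMG8), chr1:156252469-156252471 (minus, SMG5), chr12:56726876-56726878 (minus, PAN2) and chr5:112312631-112312633 (plus, DCP2).
EXOSC7: ctcggcagcATGgcg
EXOSC8: ggcgggaagATGgcg
DCP1B: ggagggaagATGgca
SMG8: ctctgcactATGgct
SMG5: ccgggcaccATGagc
PAN2: atcgtcatcATGaac
DCP2: gtcctcatcATGgag

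All 7 have the purine 3 bases before the ATG, SMG5 and PAN2 included, so that base does not separate the highest from the lowest. All 6 members with TA above RA have a G directly after the ATG, as do 3 of the 14 with TA below RA and 13 of the 26 others. Over all expressed genes, 53.6% have this G, with a median translation index of -0.37 beside -0.52 for the others, and over the members 22 of 46 (47.8%) have it, with medians of 0.30 and -0.22. These are descriptions of letters in the annotated transcript, and the start site in use in these cells was not measured.

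Transcript length was examined next. Across the 46 members, Spearman's rho of the translation index was -0.69 with mRNA length, -0.63 with 3′ UTR length, -0.48 with 5′ UTR length and -0.43 with coding length. Across 13248 expressed genes with an annotated transcript the values were -0.20, -0.16, -0.31 and -0.03. Genes are not independent replicates, and all points come from the same 7 libraries. With the stability index, rho over the members was between -0.26 and 0.16 for these 4 lengths. The paper uses the percentage of the mRNA taken up by UTRs. With that percentage, rho of the translation index was -0.36 over the members and -0.16 over all expressed genes. For the stability index these values were -0.23 and 0.07.

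The 6 members with TA above RA had 3′ UTRs of 103 to 539 bases, with a median of 193.5, and the 14 with TA below RA had 676 to 12570 bases, with a median of 4070.5, so these called groups did not overlap. The 26 members that did not pass spanned 50 to 7629 bases, with a median of 1050, and so covered most of both ranges. Over all expressed genes the median 3′ UTR was 602 bases for those with TA above RA, 1854.5 for those with TA below RA and 1094 for the others. The quartiles were 278 and 1392.5 bases with TA above RA and 714.75 and 3445.25 with TA below RA, so over all genes these groups overlapped. Of the 6 members with TA above RA, 4 were exosome genes. At a length of 4000 bases, a value chosen after the data were seen, 11 members had longer 3′ UTRs. TA was below RA for 7 of these 11 and above it for none, with a median translation index of -0.80, and for the 35 shorter ones the counts were 7 and 6, with a median of 0.17. Over all expressed genes, TA was below RA for 46.0% of those with 3′ UTRs of at least 4000 bases and for 27.0% of the others. DIS3, DDX6, DCP1A and EXOSC6 were the long ones that did not pass, and DIS3, with 7629 bases, had a translation index of 0.33. SMG5 and PAN2 had the lowest translation indices of all members with 3′ UTRs of 1366 and 676 bases. Lengths are those of the canonical transcript in GENCODE 44, and which isoforms HCT116 cells use was not measured.

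**Figure D4:**
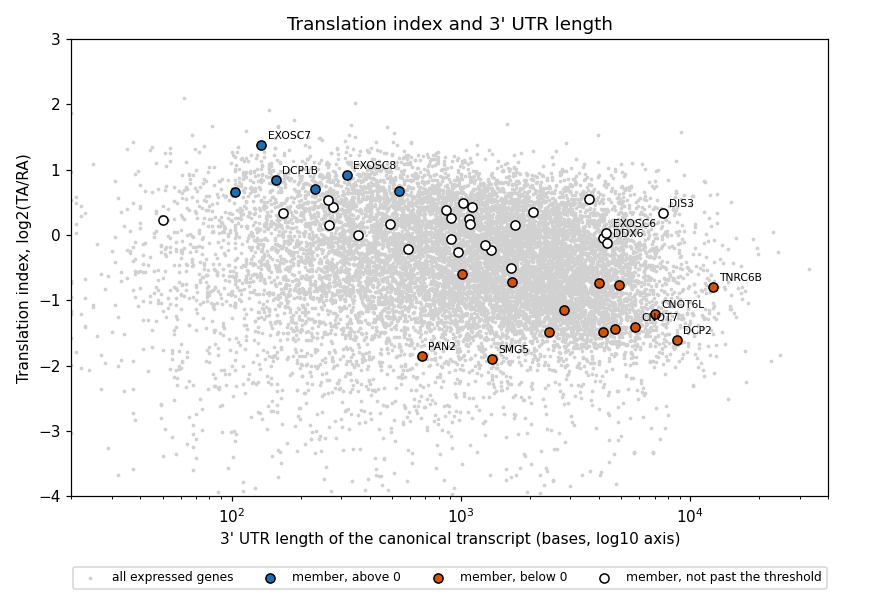
Translation index (vertical) against the 3′ UTR length of the canonical transcript in bases (log10 axis), with members as large points coloured by their call and all expressed genes in grey; grey points beyond the axes are not drawn. The 6 members called above 0 lie at 103 to 539 bases, and the 11 members with at least 4000 bases include 7 of the 14 called below 0. Members that did not pass lie on both sides of 0 and span 50 to 7629 bases.

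Paralogues were compared as log2 ratios within each library, which removes any scaling between libraries. CNOT7 was above CNOT8 in TR, at 0.29 and 0.15, and in RA, at 0.37, 0.66 and 0.77, and below it in TA, at -1.15 and -0.14. The ratio therefore changed sign between RA and TA, although the 2 TA libraries were far apart. DCP1A was above DCP1B in all TR and RA libraries, at 0.18 to 0.67, and below it in both TA libraries, at -0.56 and -0.44, which also changed the order.

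DIS3 was above DIS3L throughout, at 0.59 and 0.55 in TR, 0.44 to 0.95 in RA, and 1.35 and 1.23 in TA, where the RA and TA ranges did not overlap. TNRC6A fell against TNRC6C from 0.04 to 0.13 in RA to -0.68 and -0.65 in TA, whereas TNRC6B against TNRC6C overlapped across all 3 assays. CNOT6 exceeded CNOT6L in all 7 libraries, by 1.35 to 2.49, and UPF3A was below UPF3B in all 7, by -1.51 to -0.06, both with RA and TA ranges that overlapped. These ratios are given as values with no test, since with 2 and 3 libraries the smallest 2-sided p of an exact permutation test is 0.2.

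**Figure D5:**
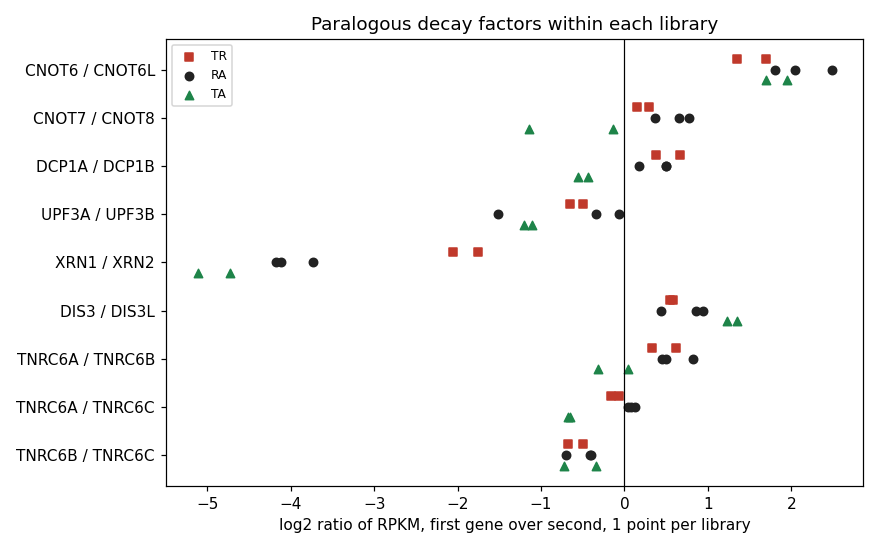
log2 ratio of the RPKM of paralogous decay factors within each library, first gene over second, with TR as red squares, RA as black circles and TA as green triangles. XRN1 over XRN2 lies at -2.05 and -1.76 in TR and at -5.12 and -4.72 in TA, and CNOT7 over CNOT8 and DCP1A over DCP1B cross 0 between RA and TA.

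Genes that work with these complexes were examined as a list of 44 partners. RA exceeded TR for 13 of the 44 (29.5%, beside 19.2% of all genes) and was below it for 16 (36.4%, beside 48.0%). TA exceeded RA for 3 (6.82%, beside 6.66%) and was below it for 13 (29.5%, beside 29.2%), so the translation counts lay at the shares of all genes. After centring the 4 counts were 22, 5, 13 and 4, beside 35.4%, 33.7%, 19.0% and 9.81% of all genes. The highest stability log2 ratio belonged to PABPC1, the cytoplasmic poly(A)-binding protein, at 2.05 ± 0.29 (limma, adjusted p = 0.000372), with mean levels of 177, 727 and 311 RPKM in TR, RA and TA and a translation log2 ratio of -1.24 ± 0.29 (adjusted p = 0.0151). The lowest belonged to ZFP36, which binds AU-rich elements and recruits deadenylases. ZFP36 had the highest TR of the list, 323 and 437 RPKM, against RA of 55.7, 65.3 and 88.8, a log2 ratio of -2.45 ± 0.27 (adjusted p = 8.22e-05), and TA above RA at 0.82 ± 0.27 (adjusted p = 0.0448).

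The highest translation log2 ratio of the partners was that of MAGOH, of the exon junction complex, at 1.08 ± 0.31 (adjusted p = 0.03), and its stability log2 ratio was 1.62 ± 0.31 (adjusted p = 0.00206). MAGOH has a near-identical paralogue, MAGOHB, and how reads shared by both were assigned is not given in the sources used here. Its binding partner RBM8A was the reverse, at -1.06 ± 0.31 (adjusted p = 0.0316) and -1.09 ± 0.31 (adjusted p = 0.0144). The lowest translation log2 ratio was that of AGO1, at -1.67 ± 0.25 (adjusted p = 0.00399). AGO2, the Argonaute that can cut its targets, had -1.65 ± 0.24 (adjusted p = 0.0037), and AGO4, named after its values were seen, -1.31 ± 0.21 (adjusted p = 0.00445). AGO3, also named after its values were seen, had -0.90 ± 0.31, which did not pass (adjusted p = 0.0557). Other partners past the threshold in both indices included SKIV2L2, the nuclear exosome helicase, above 0 in both, the nonsense-mediated decay helicase DHX34, the decapping activator PNRC2 and AGO2, below 0 in both, and PUM2, LSM14A and HBS1L, with RA above both TR and TA. PUM2 binds 3′ UTRs, LSM14A sits in P-bodies and HBS1L frees stalled ribosomes. After centring, DHX34, PNRC2 and RBM8A passed in neither index and AGO2 in translation alone. LSM14A, HBS1L and PABPC1 then passed in stability alone, while SKIV2L2, PUM2, MAGOH and ZFP36 kept both calls. For the partners, fits without 1 library are not given.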

How the data were processed

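HCT116 cells were assayed by GRO-seq (2 libraries), RNA-seq (3) and polysome profiling (2), and groups were taken from the labels. The authors deposited RPKM values per gene and library, made by mapping to hg19 with TopHat and counting reads over exons with HTSeq. CASAVA is also named in the submitters' processing notes. The counting mode, strand setting and gene annotation are not given in the sources used here. Besides the overlaps named in the results, other called members share exon bases with other genes. The shares were 19.5% for PAN2, 18.8% for CNOT7, 16.3% for EXOSC8, 13.8% for EDC3, 12.3% for TNRC6C and 11.3% for SMG8. No column of per-sample values was left unmapped.

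The deposited RPKM values were used without further scaling. Library sizes were recovered as the sizes that turn values into whole reads, which held for 99.9982% of values above 0 within 0.01 reads. Library sizes bound counting error only. The whole-read multiples can understate a gene's reads, so reads per gene are given as lower bounds.

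Genes whose mean reached 1 RPKM in some assay were tested (14305). limma 3.58.1 in R 4.3.3 was fitted to log2(RPKM + 0.1) of all 7 libraries with a trend in eBayes. Fold changes on this scale understate those of low genes. Benjamini-Hochberg adjustment was made over all 14305 genes, and 0.05 was the threshold. The fit was tested on simulated data. Indices are log2 ratios of arithmetic means. Python 3.11.15 was used for other values.

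GENCODE release 44, in its version for GRCh37, was searched for each symbol; 18776 were found directly and 938 through an older symbol, with 358 unmatched and all 46 members matched. Start codon contexts and lengths are of canonical transcripts.

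The members, partner list and tests were chosen with earlier results of these data known. In every complex, the highest and lowest genes of each index, catalytic members and paralogue pairs are named. Among partners, the extremes and the genes past the threshold in both indices are named, except for a gene that is not reported here. Alternatives were pseudocounts of 0.01 and 1, filters on low values, no trend, geometric means, centring of each library on its median, a replicate block and leaving out each library.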

Additional observations from a re-analysis of the deposited data

How the results depend on the processing

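Centring each library on its median had the greatest effect on the counts of members called. Stability calls above 0 went from 9 to 21 and below 0 from 15 to 1, and translation calls above 0 from 6 to 19 and below 0 from 14 to 6. The median stability index of the members turned from -0.24 to 0.44 and the median translation index moved from 0.01 to 0.51. The stability log2 ratios of 5 members called below 0 changed sign, CNOT4 to 0.0024, EDC3 to 0.16, XRN1 to 0.042, SMG5 to 0.10 and SMG9 to 0.00088, none then past the threshold, and 3 uncalled ones changed sign and passed above 0, CNOT11 at 0.63, DCP1A at 0.60 and EXOSC8 at 0.48. This follows from the shift in all genes that centring makes. The paper describes log-phase cells divided into 3 parts, 1 for each assay, so libraries of different assays may share a culture. No source says whether equal replicate numbers mark such a culture, and pairing was not assumed. Differences between replicates 1 and 2 correlated across 14305 genes at 0.08 (TR and RA), -0.50 (RA and TA) and 0.01 (TR and TA). A fit with the replicate number as a block took the stability counts to 4 above and 10 below 0 and the translation counts to 1 and 6. Of the calls kept in all 7 fits without 1 library, the block kept 8 of 8 in stability and 7 of 9 in translation, where EXOSC8 (limma adjusted p = 0.0578) and PAN3 (0.0602) were lost. Leaving out 1 library gave 4 to 9 and 8 to 17 stability calls, 2 to 6 and 8 to 14 translation calls, medians of -0.32 to -0.17 for stability, and -0.022 (without TA replicate 1, the 1 fit where it changed sign) to 0.15 for translation. Other pseudocounts, filters and no trend left each count within 1.5 times, and geometric means, run on the medians, gave -0.23 for stability and 0.03 for translation. Over 1288 values of single members under the alternatives of the fit, 132 lost their call with the same sign and 48 changed sign, 25 of these with centring. Of the 48, 5 had been called, 3 were called only after centring and 40 in neither fit. Depth limits the TR libraries most, with as few as 59 reads for a member.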
